A study of Mus musculus with 6 samples.

Results

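*Ppp1r3c* and 8 further genes of glycogen metabolism were followed in tail tendons of WT and *Mkx*-/- mice. *Ppp1r3c* was chosen by its readout, as one of the largest decreases in the *Mkx*-/- libraries, and the 8 others (*Ppp1r3b*, *Ppp1r3d*, *Gys1*, *Gyg*, *Gbe1*, *Ugp2*, *Pygb* and *Pygl*) were taken by symbol because they act in the same pathway. The 9 genes were found by symbol among the 44788 gene symbols of the count table, and each had enough counts to be tested. Bulk RNA-seq, which reads the messages of all cell types of a tissue as one pool, was performed on tail tendons of C57BL/6 mice labelled 3 weeks old, with 3 libraries from WT mice and 3 from mice with both copies of *Mkx* inactivated. *Mkx* encodes Mohawk, a homeodomain transcription factor of tendon, and the knockout is present in every cell of the animal. The study's text gives a later age for the mice than the labels, and whether tendons of several mice were pooled in a library is not given in the sources used here. In bulk tissue, fewer cells of a type and less RNA per cell cannot be told apart, and this applies to each level below.

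Glycogen is a branched polymer of glucose that cells lay down as an energy store. *Ugp2* makes the activated sugar UDP-glucose, glycogenin (*Gyg*) primes the particle, glycogen synthase (*Gys1*) extends its chains and the branching enzyme (*Gbe1*) adds the branch points, while glycogen phosphorylases (*Pygb*, *Pygl* and, in muscle, *Pygm*) release glucose 1-phosphate from it. Protein phosphatase 1 (PP1) switches synthase on and phosphorylase off, and the subunits encoded by the *Ppp1r3* genes bring PP1 to the glycogen particle. The product of *Ppp1r3c* is also known as protein targeting to glycogen. Chondrocytes and skeletal muscle fibers are well-known stores of glycogen.

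The libraries held 10835070 to 14160301 counts. *Mkx* itself was at 138 ± 4.92 CPM (counts scaled to the size of the library, with edgeR's TMM factors) in WT and fell to 45.7 ± 9.68 CPM in the knockout (SD, n = 3 each; log2 fold change -1.60, edgeR's adjusted p = 0.00183), and counts per gene do not show which exons the remaining reads cover. The tendon genes *Fmod* and *Tnmd* were abundant in all 6 libraries, at 15600 to 19800 and 886 to 1290 CPM. WT replicate 3 had 301 counts on the Y-linked gene *Ddx3y* and 1 on *Xist*, whereas the other 5 libraries had 0 and at least 1289, so that sex was not balanced between the groups. The 25 skeletal muscle markers summed to 504, 112 and 333 CPM in the WT libraries and to 3560, 1720 and 707 CPM in the *Mkx*-/- libraries, and none of the 25 was at 0 throughout. Each *Mkx*-/- library thus held more of them than any WT library.

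*Ppp1r3c* was far lower in *Mkx*-/- tendons. It was counted 1022, 987 and 840 times in the WT libraries and 73, 113 and 79 times in the *Mkx*-/- libraries. In normalized terms it was at 80.5, 96.9 and 67.3 CPM in WT and at 6.69, 7.94 and 6.26 CPM in *Mkx*-/- tendons. The groups did not overlap, and even the lowest WT library, the male one, was well above every *Mkx*-/- library. The means were 81.6 ± 14.8 CPM and 6.96 ± 0.872 CPM (SD, n = 3 each), which is an 11.7-fold lower level and a log2 fold change of -3.54 (standard error 0.18 in edgeR's fit). Because *Ppp1r3c* was chosen for this decrease, the values are a description and no test is given for them. When each library was left out in turn, the log2 fold change stayed between -3.68 and -3.42.

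*Ppp1r3c* lies on chromosome 19 (mm9, 36806227 to 36811143, minus strand), and the annotation places no other gene over it. The study's thresholds for a decrease were a log2 fold change below -1 and an adjusted p under 0.05. With them, edgeR's quasi-likelihood test called 193 of 14550 genes downregulated, or 1.33%. DESeq2, the tool the study used, called 278 at the same thresholds. *Ppp1r3c* was chosen for its decrease, so its place among the 193 is a description. Of the 193, 121 averaged 5 CPM or more, and 4 of the 121 had a larger decrease. Among the 4 were *LOC102637600* at -3.73 and *Slc7a11*, a cystine transporter gene, at -4.22. Next below *Ppp1r3c* were *Masp1*, a protease gene of the complement system, at -3.44, the growth factor receptor gene *Fgfr4* at -3.42 and the phospholipase-like gene *Plbd1* at -3.33. *Ppp1r3c* had the highest WT mean of these 6 genes, 81.6 CPM against 9.59, 29.5, 10.2, 41.7 and 18.0 CPM in the same order. Without the cut at 5 CPM, *Ppp1r3c* was 17th by log2 fold change among all tested genes, and by WT mean it was 26th among the 193. Of all tested genes with a larger log2 decrease, 0 had a WT mean as high as that of *Ppp1r3c*.

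**Figure D1:**
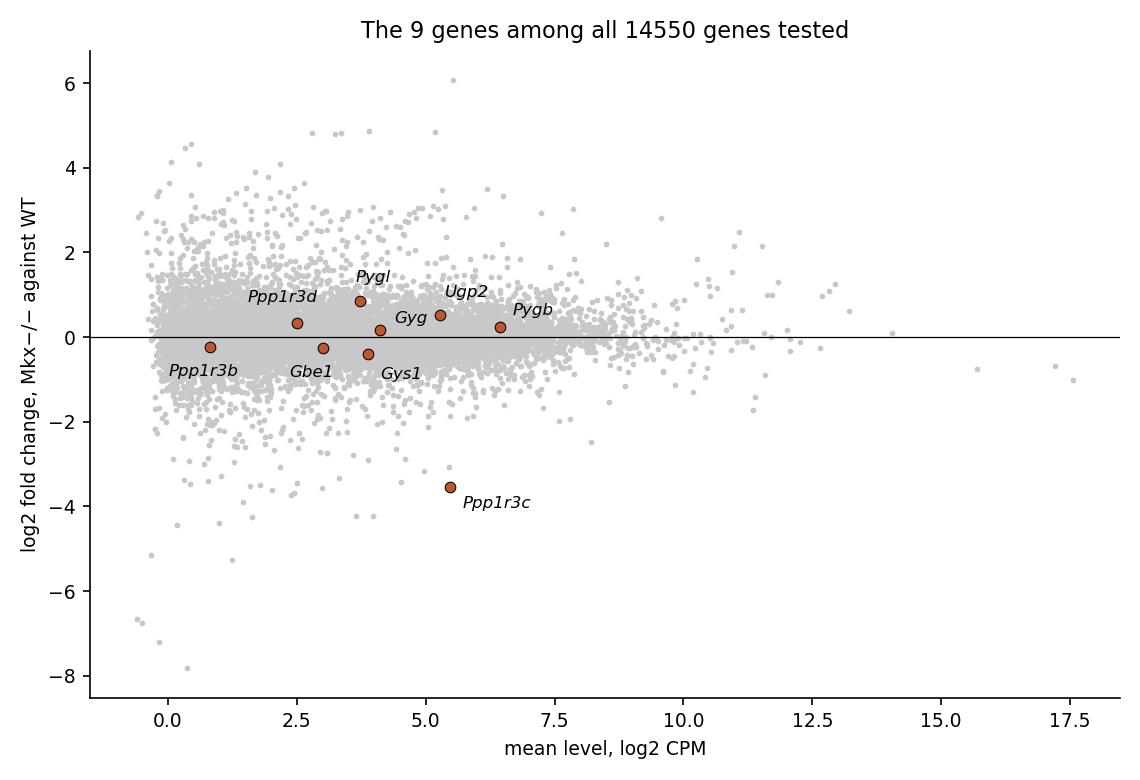
Each gray point is one of the 14550 genes tested, with its mean level (log2 CPM, horizontal) and its log2 fold change in *Mkx*-/- against WT tendons (vertical); orange points are the 9 glycogen genes. *Ppp1r3c* is at -3.54, with no gene of as high a WT mean below it, while the 8 others lie between -0.40 and 0.85, within the bulk of the gray points.

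Genes with a profile over the 6 libraries like that of *Ppp1r3c* were sought among 10294 others that averaged 5 CPM or more, by the root mean square difference between log2 levels centered on each gene's mean. Among the nearest, *Gsg1l*, which encodes a protein associated with glutamate receptors, had a difference of 0.30, *Plbd1* 0.40, the neuronal nitric oxide synthase gene *Nos1* 0.46 and *LOC102637600* 0.47. All of these fell steeply, with log2 fold changes of -3.17, -3.33, -2.90 and -3.73, and the shared step between the genotypes makes up most of the likeness. The 8 other glycogen genes had differences of 1.57 (*Gys1*) to 2.22 (*Pygl*), on either side of the median of 1.77 over all 10294 genes. Any gene without that step lies far from *Ppp1r3c* on this measure. These values therefore restate that the 8 did not share its decrease.

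A window of sequence around the start site of *Ppp1r3c* is shown, and its part in the decrease was not tested. The window runs from 250 bases before to 50 bases after the start site (RefSeq, GRCm38.p6, chr19:36736555-36736854, minus strand), 5′ to 3′, with the element CACGTG in capitals, an E-box bound by basic helix-loop-helix factors.
*Ppp1r3c*: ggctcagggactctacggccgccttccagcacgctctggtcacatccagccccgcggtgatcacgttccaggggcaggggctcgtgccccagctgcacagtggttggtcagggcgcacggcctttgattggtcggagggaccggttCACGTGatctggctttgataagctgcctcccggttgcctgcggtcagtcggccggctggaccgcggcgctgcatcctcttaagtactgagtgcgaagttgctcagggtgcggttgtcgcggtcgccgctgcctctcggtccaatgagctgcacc

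The element begins at position -104 from the start site of *Ppp1r3c*. It was found in 7.15% of the 32851 promoter windows of this length, and, of the 8 genes with a window in the table, in 3: *Ppp1r3c*, *Ppp1r3d* and *Gyg*. The 50 bases around it are given for *Ppp1r3d* and *Gyg*, from chr2:178414662-178414711 and chr3:20155081-20155130 (both GRCm38.p6, minus strand). In these windows it lies elsewhere, beginning at position -226 in *Ppp1r3d* and at position 8, after the start site, in *Gyg*.
*Ppp1r3d*: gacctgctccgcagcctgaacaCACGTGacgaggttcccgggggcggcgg
*Gyg*: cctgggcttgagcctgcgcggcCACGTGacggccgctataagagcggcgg

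The shorter core ACGTG, which lies within CACGTG and was searched on both strands, was present in the windows of 6 of the 8 genes and in 19.6% of all windows. The element ACANNTGT, which is the same on both strands and is bound by Iroquois homeodomain proteins, relatives of Mohawk, was found in 7.38% of all windows and, of the 8 genes, in that of *Gyg*. A match gives letters only and does not show that a factor is bound.

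The other PP1 targeting subunits measured beside *Ppp1r3c* did not share its decrease. *Ppp1r3d*, which encodes a subunit found in many tissues (chromosome 2, 178145911 to 178149177, minus strand), was at 5.36, 4.71 and 4.65 CPM in WT against 6.69, 4.64 and 7.21 CPM in *Mkx*-/- tendons. Its groups overlapped, and its log2 fold change of 0.33 had a 95% interval of -0.17 to 0.83 (edgeR's adjusted p = 0.427). *Ppp1r3b*, the main subunit of liver (chromosome 8, 36438795 to 36451178, plus strand), was scarce, with 9 to 34 counts in a library. At 1.34, 1.08 and 2.72 CPM in WT against 0.824, 1.41 and 2.14 CPM in *Mkx*-/- tendons, its libraries were mixed in order. The log2 fold change of -0.24 had a wide interval of -1.30 to 0.83 (edgeR's adjusted p = 0.815), and leaving out WT replicate 3 or *Mkx*-/- replicate 1 turned it to 0.25 or 0.01, so that no direction can be given at this depth.

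Per length of exon, *Ppp1r3c* made up most of the *Ppp1r3* messages of WT tendons. Its level per length was 92.6%, 93.2% and 88.4% of the sum over the 7 *Ppp1r3* genes in WT against 42.4%, 51.2% and 38.6% in the *Mkx*-/- libraries. The sum fell with it, from 32.0, 38.2 and 28.0 CPM per kb to 5.80, 5.71 and 5.96 CPM per kb, and this is the same decrease seen on another scale. Of the remainder, *Ppp1r3d* was the largest share in each library and took 3.77% to 5.13% of the sum in WT and 24.9% to 37.0% in *Mkx*-/- libraries. Of the others, the muscle subunit *Ppp1r3a* had 0 to 7 counts in a library and *Ppp1r3g* had 0 in each, which allows up to 3 counts in a library. *Ppp1r3e* and *Ppp1r3f* stood at 0.23 and 0.35 on the log2 fold scale (edgeR's adjusted p = 0.864 and 0.681), and 34.9% of the exon length of *Ppp1r3f* is shared with *Ccdc22*, so its counts are uncertain.

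**Figure D2:**
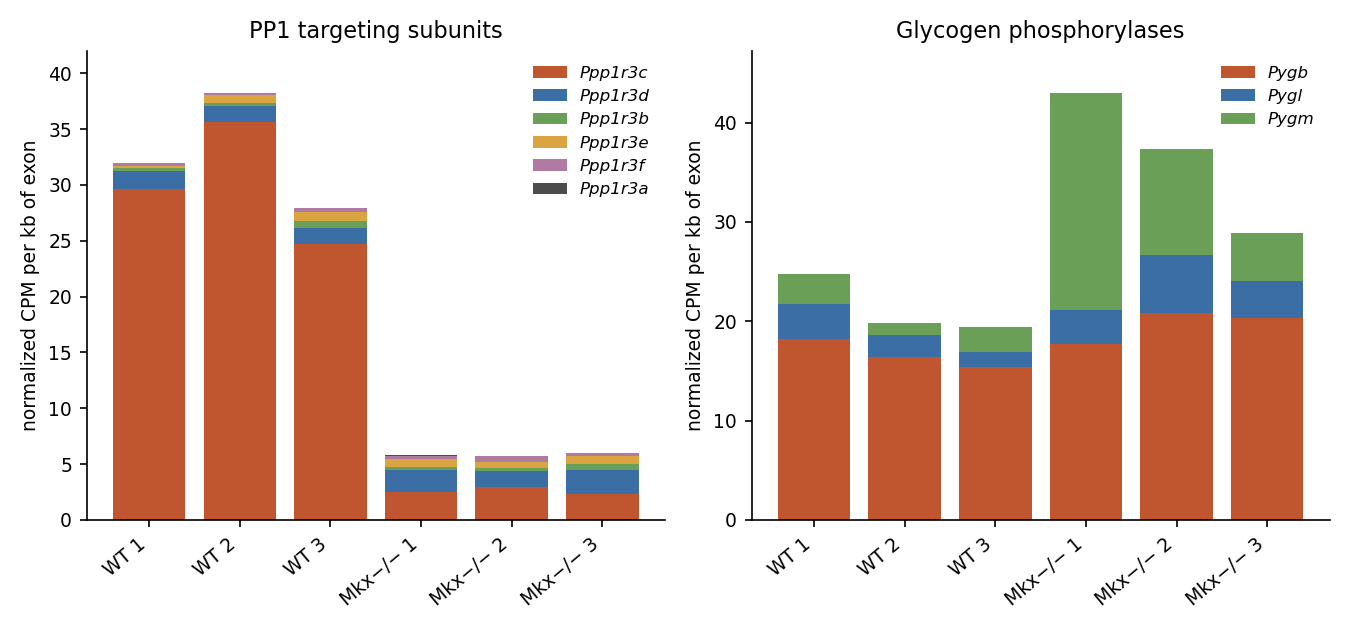
Stacked bars give the level of each gene per length of exon (normalized CPM per kb) in the 6 libraries, for the PP1 targeting subunits (left, 6 of the 7 genes, since *Ppp1r3g* had no counts) and the glycogen phosphorylases (right). *Ppp1r3c* is nearly the whole bar in WT and 38.6% to 51.2% of a much shorter bar in *Mkx*-/- libraries, while *Pygb* changes little and *Pygm* differs strongly between *Mkx*-/- libraries.

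The enzymes that build glycogen were measured at moderate levels in both genotypes, and none passed an adjusted p of 0.05. *Ugp2*, on chromosome 11 (21221141 to 21271204, minus strand), came closest. It was at 29.2, 34.4 and 31.9 CPM in WT against 41.7, 43.7 and 51.0 CPM in *Mkx*-/- tendons, with each *Mkx*-/- library above each WT library. The log2 fold change was 0.52 (95% interval 0.22 to 0.81, edgeR's adjusted p = 0.0598), and DESeq2 placed it past the threshold (adjusted p = 0.0293, against a range of 0.0193 to 0.194 over the alternatives). *Gys1*, on chromosome 7 (52690214 to 52711989, plus strand), was at 16.5, 17.1 and 16.0 CPM in WT against 14.6, 11.2 and 12.0 CPM in *Mkx*-/- tendons. Here every *Mkx*-/- library was below every WT library, with a log2 fold change of -0.40 (95% interval -0.73 to -0.07, edgeR's adjusted p = 0.145). The exons of *Gys1* share 310 bases with *Ruvbl2* on the opposite strand, and those of *Ugp2* 78 bases with a noncoding gene, so that a few of their reads may belong to these partners.

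*Gyg*, on chromosome 3 (20021970 to 20055216, minus strand), was at 15.3, 17.2 and 15.9 CPM in WT against 18.9, 19.3 and 16.4 CPM in *Mkx*-/- tendons. Its groups overlapped through the third *Mkx*-/- library (log2 fold change 0.18, 95% interval -0.12 to 0.47, edgeR's adjusted p = 0.466). *Gbe1*, on chromosome 16 (70314194 to 70569961, plus strand), was at 8.43, 7.85 and 9.29 CPM in WT against 8.61, 4.99 and 7.85 CPM in *Mkx*-/- tendons. The second *Mkx*-/- library was the lowest of the 6 and the groups overlapped (log2 fold change -0.26, 95% interval -0.77 to 0.25, edgeR's adjusted p = 0.536). For both genes the interval leaves room for a change of either sign, but not for one of the size seen in *Ppp1r3c*.

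Of the phosphorylases, *Pygb*, the brain form (chromosome 2, 150612471 to 150657494, plus strand), had the highest level per length in 5 of the 6 libraries, and *Pygm* exceeded it in *Mkx*-/- replicate 1 (21.8 against 17.7 CPM per kb). *Pygb* was at 87.3, 79.0 and 73.9 CPM in WT against 85.1, 100 and 97.7 CPM in *Mkx*-/- tendons, with overlapping groups and a log2 fold change of 0.24 (95% interval -0.05 to 0.52, edgeR's adjusted p = 0.306). *Pygl*, the liver form (chromosome 12, 71291798 to 71332475, minus strand), varied widely within each genotype. It was at 13.5, 8.64 and 5.77 CPM in WT against 13.2, 22.6 and 14.5 CPM in *Mkx*-/- tendons. WT replicate 1 was as high as the lowest *Mkx*-/- library, and the log2 fold change of 0.85 (95% interval 0.12 to 1.59) missed the threshold (edgeR's adjusted p = 0.160). Without that library it was 1.23 and passed it (adjusted p = 0.0381, against a range of 0.0381 to 0.399 over the alternatives).

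**Figure D3:**
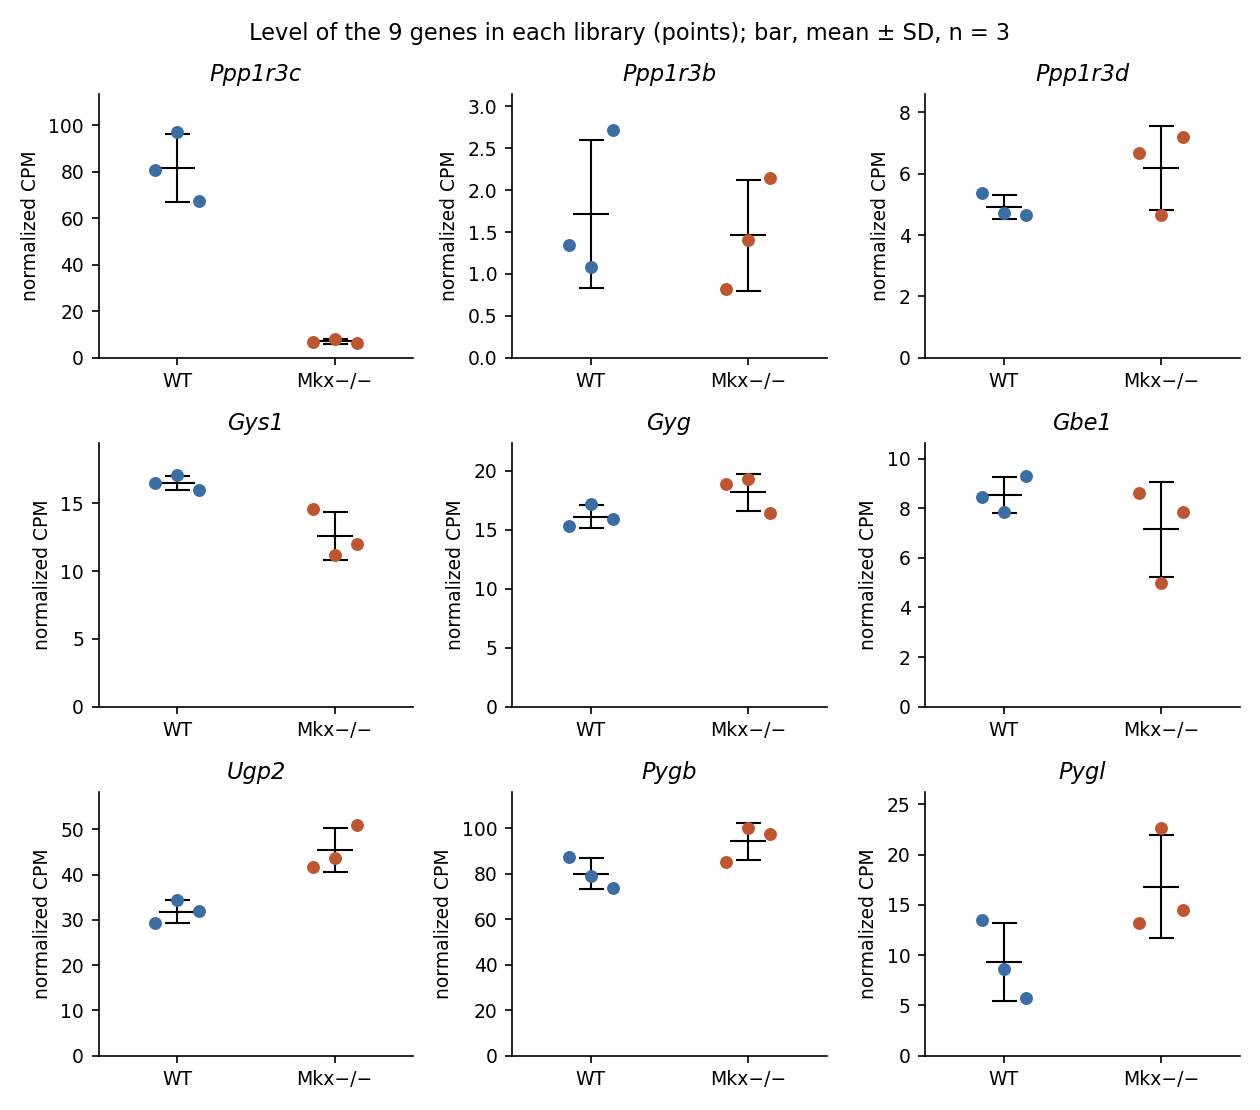
Each point is the normalized CPM of one library, with WT in blue and *Mkx*-/- in orange (replicates 1 to 3 from left to right), and the bar gives the mean ± SD of 3 libraries; each axis starts at 0 and has its own scale. The groups are apart for *Ppp1r3c* (lower in *Mkx*-/-), *Gys1* (lower) and *Ugp2* (higher), and overlap for the other 6 genes.

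Apart from *Ppp1r3c*, the changes in the 9 genes were small, within 1 log2 unit. At an adjusted p under 0.05 at any fold, edgeR passed 0 of the 8, against 5.44% of all genes tested, and DESeq2 passed 1, *Ugp2*. At an unadjusted p under 0.05 there were 3 (*Ugp2* and *Pygl* higher, *Gys1* lower), where 22.6% of all genes reach that level. The libraries of the genotypes did not overlap for 2 of the 8, against 28.2% of all genes. The median log2 fold change of the 8 was 0.21 and that of all genes tested was 0.00. These genes were put together with earlier results of these data known, so the counts describe the list and are no test of it.

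The order of the levels per length differed between the genotypes mainly in the place of *Ppp1r3c*. In WT tendons it was first, at 30.0 ± 5.45 CPM per kb, followed by *Pygb* at 16.7 ± 1.40, *Ugp2* at 10.4 ± 0.835 and *Gyg* at 6.83 ± 0.411 CPM per kb (SD, n = 3 each), and each of these 4 lay apart from the next gene in the order. *Gys1*, *Pygl*, *Gbe1* and *Ppp1r3d* followed at 3.46, 2.43, 1.59 and 1.5 CPM per kb, where the libraries of each neighboring pair overlapped, and *Ppp1r3b* was last at 0.408 ± 0.210 CPM per kb. In *Mkx*-/- tendons *Pygb*, *Ugp2* and *Gyg* led with 19.6, 14.8 and 7.72 CPM per kb, and *Pygl* came before *Gys1* at 4.38 against 2.62 CPM per kb. *Ppp1r3c* was sixth of the 9, at 2.56 ± 0.321 CPM per kb, and its libraries overlapped with those of *Gys1*.

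The rest of the pathway was read from 7 lists with 41 genes, of which 35 had enough counts to be tested. At an adjusted p under 0.05, 2 were higher (*Slc2a4* and *Pygm*), 2 were lower (*Ppp1cc* and *Phka1*) and 31 did not pass, so that 4 of 35 passed where 5.44% of all genes did. The median log2 fold change of the 35 was 0.05. Both that were higher also passed a log2 fold change of 1, which 1.89% of all genes did upward at that adjusted p, and neither that was lower passed -1.

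Among the 3 catalytic subunits of PP1, which carry out the dephosphorylation, *Ppp1cc* fell from 16.8 ± 1.74 to 10.7 ± 1.29 CPM (SD, n = 3 each; log2 fold change -0.64, edgeR's adjusted p = 0.0476). This call was close to the threshold and was lost in each fit that left out a library. The more abundant *Ppp1ca* and *Ppp1cb*, at 138 and 49.9 CPM in WT, were at 0.11 and -0.23 on the log2 fold scale (edgeR's adjusted p = 0.686 and 0.305). Of the 5 subunits of phosphorylase kinase, which activates phosphorylase, *Phka1* fell from 28.1 ± 2.75 to 17.6 ± 3.12 CPM (SD, n = 3 each; log2 fold change -0.68, edgeR's adjusted p = 0.0459). Its call was lost without WT replicate 2 or 3 and without *Mkx*-/- replicate 2 or 3, with an adjusted p of 0.129 to 0.153. The muscle-type catalytic subunit *Phkg1*, at 1.02, 0.687 and 0.721 CPM in WT against 3.21, 1.55 and 0.634 CPM in *Mkx*-/- tendons, had log2 fold change 1.11 (edgeR's adjusted p = 0.297). *Phkb* was at -0.22 (adjusted p = 0.501).

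The list of uptake and synthesis held *Pgm2* (chromosome 4) and *Pgm1* (chromosome 5), genes of the phosphoglucomutase family named here as in the mm9 annotation. Symbols of this family differ between annotations, so the loci and not the names identify the genes. They were at -0.75 and 0.61 on the log2 fold scale without passing the threshold (edgeR's adjusted p = 0.0660 and 0.0726). *Pgm2* was the more abundant, at 65.7 ± 12.8 CPM in WT against 39.0 ± 8.13 CPM in the knockout (SD, n = 3 each), and its exons share 13.6% of their length with *Itgb3bp* on the opposite strand. In breakdown, *G6pc3* and *Slc37a4*, which act on glucose 6-phosphate in the endoplasmic reticulum, were at 0.32 and -0.26 (edgeR's adjusted p = 0.205 and 0.365). The glycogen synthase kinase *Gsk3a* and the AMPK subunit *Prkag2* were at 0.19 and -0.30 (adjusted p = 0.326 and 0.373), and 0 of the 8 tested genes of that list passed at an unadjusted p under 0.05 in edgeR. Of the 3 genes around laforin and malin, a phosphatase and a ubiquitin ligase that act on glycogen and its targeting subunits, *Epm2aip1* was at -0.50 and *Nhlrc1*, which encodes malin, at 0.60 (adjusted p = 0.0757 and 0.212).

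**Figure D4:**
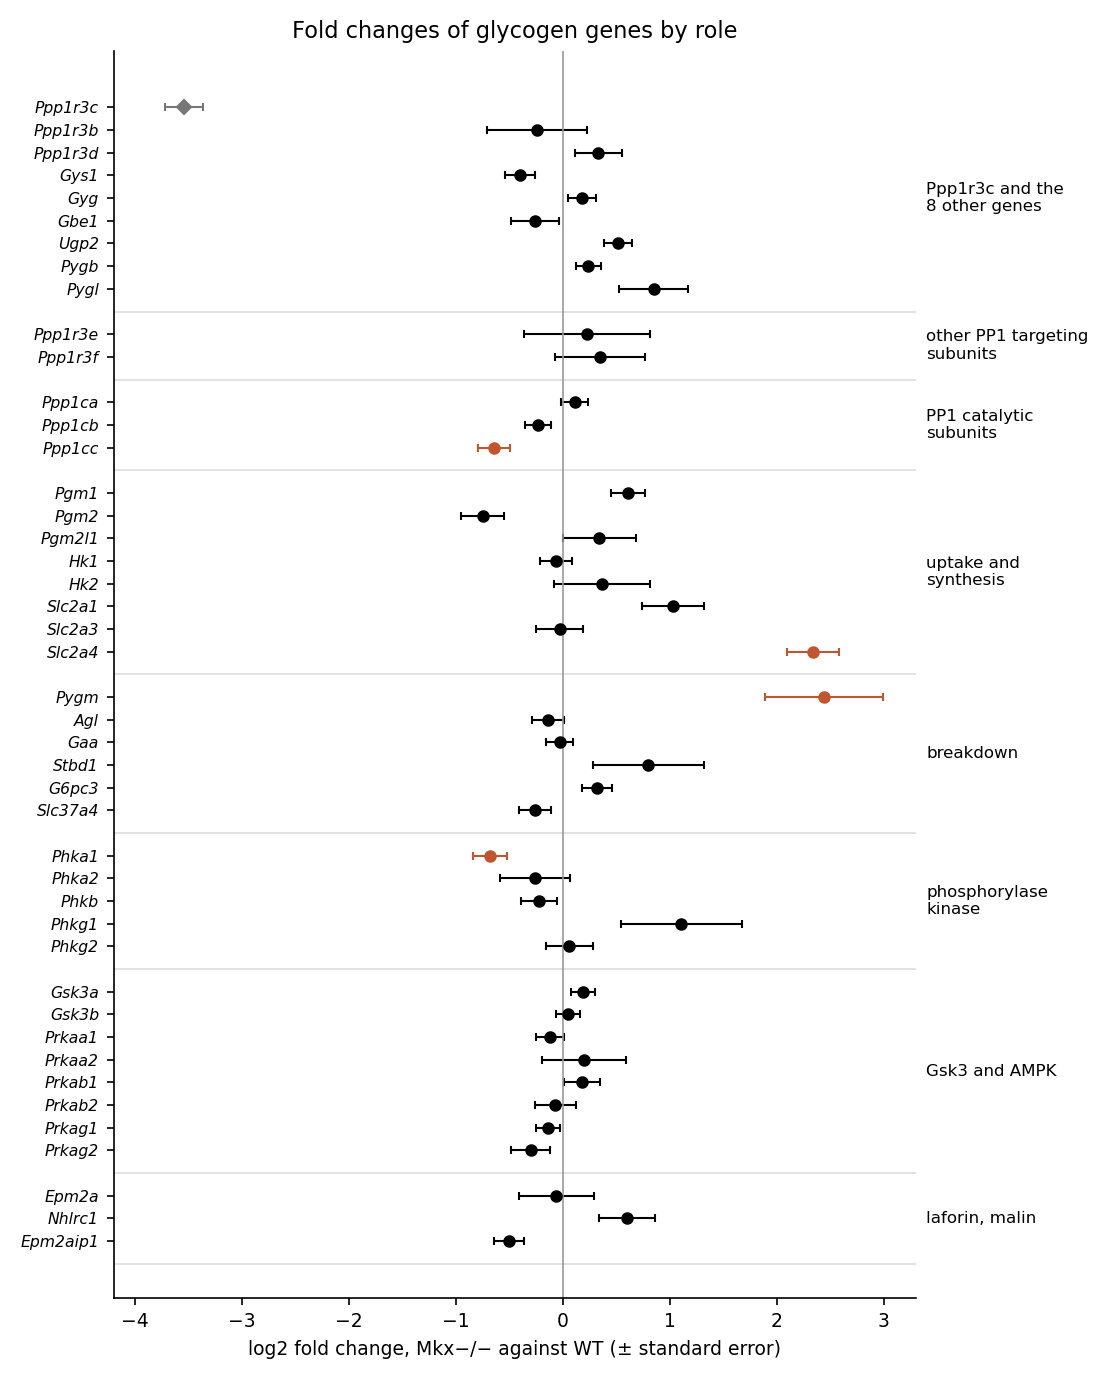
Log2 fold changes of the 9 glycogen genes and of the 35 other tested genes of the pathway (± standard error of edgeR's fit), grouped by role; orange points passed an adjusted p of 0.05, black points did not, and the gray diamond is *Ppp1r3c*, for which no test is given. Apart from *Ppp1r3c* at -3.54, the largest values are those of *Pygm* and *Slc2a4*, at 2.44 and 2.34.

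*Pygm* and *Slc2a4* are genes of muscle, and the muscle markers above moved with the first of them. *Pygm*, which encodes the muscle glycogen phosphorylase, was at 9.93, 3.73 and 8.01 CPM in WT against 70.1, 34.1 and 15.3 CPM in *Mkx*-/- tendons, with log2 fold change 2.44 (standard error 0.55, edgeR's adjusted p = 0.0417). In both genotypes its libraries were in the same order as the sums of the 25 muscle markers, of which 24 had a positive log2 fold change (7208 of the 14550 genes tested did) and 5 were called higher, with a median of 2.86. When single libraries were left out, the call was lost without WT replicate 2 or 3 and without *Mkx*-/- replicate 1 or 2, at an adjusted p of 0.0770 to 0.132, and it was also lost in edgeR's robust fit (adjusted p = 0.0951). The part of muscle RNA in the increase of *Pygm* was not tested.

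*Slc2a4*, which encodes the insulin-responsive glucose transporter of muscle and fat, was at 1.18, 1.08 and 1.28 CPM in WT against 5.40, 5.48 and 7.21 CPM in *Mkx*-/- tendons. The groups were far apart and narrow, at log2 fold change 2.34 (standard error 0.24, edgeR's adjusted p = 0.00216), and the call held in each fit that left out a library. Its libraries were not in the order of the muscle markers: *Mkx*-/- replicate 3 had the lowest muscle sum of its group and the highest *Slc2a4*. The fat cell markers *Adipoq*, *Plin1* and *Cidec* were at 0 to 0.632 CPM. The sum of the 11 fat cell markers was 31.4 to 48.5 CPM in WT and 63.3 to 111 CPM in *Mkx*-/- libraries, mostly *Lpl*, *Plin4* and *Car3*. *Lpl* overlapped between the genotypes (19.1 to 25.7 and 19.7 to 23.9 CPM). *Plin4* (5.59 to 9.69 and 16.5 to 25.2 CPM) and *Car3* (2.75 to 10.6 and 22.1 to 57.9 CPM) were higher in each *Mkx*-/- library. Of the 4 fat cell genes tested, 2 were called higher, where 1.89% of all genes were. The part of either cell type in *Slc2a4* was not tested. Between the genotypes *Ppp1r3c* went the other way from the muscle markers, which restates the decrease by which it was chosen. Within a genotype the order was mixed. WT replicate 2 had the lowest muscle sum of its group (112 CPM) and the highest *Ppp1r3c* (96.9 CPM). *Mkx*-/- replicate 3 had the lowest of its group in both (707 and 6.26 CPM).

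**Figure D5:**
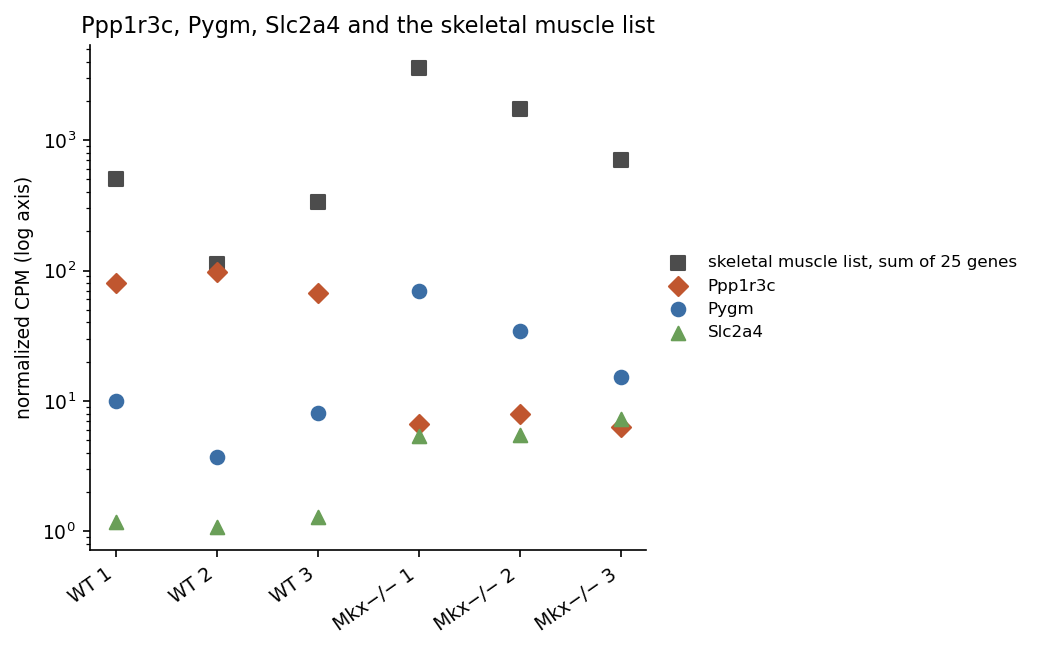
Normalized CPM (log axis) in the 6 libraries of the summed skeletal muscle list (25 genes), *Ppp1r3c*, *Pygm* and *Slc2a4*. *Pygm* follows the muscle sum, highest in *Mkx*-/- replicate 1 at 70.1 CPM, *Slc2a4* is at 5.40 to 7.21 CPM in all 3 *Mkx*-/- libraries, and *Ppp1r3c* drops from at least 67.3 CPM to at most 7.94 CPM.

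The sums of other marker lists also differed between the genotypes. The leukocyte markers summed to 568 to 600 CPM in WT and 353 to 383 CPM in *Mkx*-/- libraries, the endothelial markers to 67.2 to 84.8 and 128 to 168 CPM, and the Schwann cell markers to 6180 to 8490 and 9930 to 18500 CPM. Over all genes tested, 7208 of 14550 had a positive log2 fold change, 1.89% were called higher and 1.33% lower. Of the 11 leukocyte genes, 0 had a positive log2 fold change and 2 were called lower. Of the 8 Schwann cell genes, 8 were positive and 0 were called. Of the 10 endothelial genes, 8 had a positive log2 fold change and 2 were called higher. *Tek*, *Kdr*, *Esam* and *Emcn* overlapped between the genotypes. The cartilage list did not move as one: its sum was 4480 to 6610 CPM in WT and 3010 to 4080 CPM in *Mkx*-/- libraries through *Col11a2*, the 1 gene called lower (3180 to 4810 and 893 to 1630 CPM), whereas 7 of its 10 tested genes had a positive log2 fold change, with a median of 0.87. Of these, *Acan* and *Matn3*, genes of the cartilage matrix, were called higher, at 2.20 and 1.45 (edgeR's adjusted p = 0.0038 and 0.00181). The tendon markers, mostly collagen I, summed to 382000 to 525000 and 245000 to 340000 CPM. They did not move as one either: of 10 tested genes, 3 had a positive log2 fold change, 1 was called higher and 0 lower. *Col1a2* (224000 to 278000 and 112000 to 152000 CPM) and *Egr1* were lower in each *Mkx*-/- library than in any WT library. *Thbs4* (3890 to 5090 and 9860 to 12100 CPM) and *Tppp3* were higher in each. *Col1a1*, *Fmod*, *Tnmd*, *Dcn*, *Kera* and *Scx* overlapped between the genotypes. The epidermal sums were low, but higher in each *Mkx*-/- library (18.7 to 25.2 CPM) than in any WT library (4.18 to 14 CPM), with 5 of 5 tested genes positive and 0 called in edgeR. The erythroid sums overlapped. The part of these cell types in the decrease of *Ppp1r3c* was not tested.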

How the data were processed

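Bulk RNA-seq counts of 3 WT and 3 *Mkx*-/- tail tendon libraries, sequenced on the Ion Proton system, were analysed. The authors trimmed adaptors, dropped reads of low quality, mapped the rest to mm9 with MapSplice and deposited raw counts per gene symbol. The counting program, its annotation and its use of strand are not given in the sources used here. All 6 columns were matched to samples by name, with 0 unused. From the deposited counts, edgeR 4.0.16 in R 4.3.3 (TMM factors, filterByExpr, quasi-likelihood test on genotype alone, Benjamini-Hochberg adjustment over the 14550 genes tested) gave fold changes (prior count 0.125), and standard errors were taken as the fold change over the root of F. DESeq2 1.42.0 was an alternative. Profiles used log2 CPM with a prior count of 2. The edgeR and DESeq2 steps were tested on simulated data. Levels per length used the union of exons in the GENCODE annotation of mm9.

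The 9 genes and all lists were chosen with earlier results of these data known. Named genes are the 9 genes, *Mkx*, the genes of the 7 other glycogen lists that passed and up to 2 next by p, the 5 profiles nearest to *Ppp1r3c* and 3 decreases on either side of it. One gene under this rule is not reported here. Same-numbered replicates had correlations of deviations of 0.0261, -0.210 and 0.297, so the numbers do not pair the samples. Replicate libraries differed by more than sampling noise (chi-square over its degrees of freedom 7.67 to 36.9), so none was a second sequencing of the same library. Whether they came from different mice cannot be told from this. With 3 libraries per group, an exact permutation test cannot go below 0.1. The p-values of edgeR set the genotype difference against a spread between libraries that is estimated with the help of all genes tested. Alternatives are given with the limits.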

Additional observations from a re-analysis of the deposited data

How the results depend on the processing

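With DESeq2, RLE, upper-quartile or library-size scaling, filters of 1 count in any or 10 counts in every library, a robust fit, removal of the muscle list, the replicate block and each library left out, *Ppp1r3c* stayed between -3.68 and -3.29. The lowest size, -3.29, came with library size only, which raises the median of all genes by 0.25 and so shifts every gene by that much. Genes called downregulated numbered 193 in the main fit and 278 with DESeq2. They numbered 322 under the filter of 1 count and 112 to 248 when a library was left out (113 and 112 without WT replicates 2 and 3, 121 without *Mkx*-/- replicate 3). Upregulated genes numbered 275 in the main fit and 384 with DESeq2. They numbered 711 (beside 154 downregulated) under library size only, 541 under the filter of 1 count and 103 to 321 when a library was left out (103, 119, 155 and 177 without WT replicates 3 and 2 and *Mkx*-/- replicates 2 and 3). The filter of 1 count tests 25777 genes.

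Of the 8 other genes, 0 passed in the main edgeR fit, 1 (*Ugp2*) with DESeq2 and with library size only, 2 (*Ugp2* and *Pygl*) under the filter of 1 count, and 0 to 1 when a library was left out (*Pygl*, without WT replicate 1). *Ugp2* was at 0.51 with DESeq2, 0.78 with library size only and 0.53 under the filter of 1 count, and *Pygl* at 0.87 under that filter and 1.23 without WT replicate 1 (0.57 to 1.23 over the libraries left out). *Ppp1r3b* changed sign, to 0.04 with library size only, 0.25 when WT replicate 3 and 0.01 when *Mkx*-/- replicate 1 was left out (-0.61 to 0.25 over the libraries left out). Library size only shifts every gene upward, as given above, and the cause of the sign changes with a library left out was not tested. *Ppp1r3b* could not be fitted under the filter of 10 counts.

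Of the 35 other pathway genes, 4 passed, with 1 to 4 when a library was left out. *Slc2a4* alone passed in the fits that left out WT replicate 2, WT replicate 3 or *Mkx*-/- replicate 2, and *Slc2a4* and *Pygm* passed without *Mkx*-/- replicate 3. With DESeq2 and with the filter of 1 count 6 passed, the same 4, *Pgm2* and *Slc2a1*, a glucose transporter gene named after its values were seen. With library size only 4 passed, but *Pgm1* and *Slc2a1* took the place of *Ppp1cc* (adjusted p = 0.237) and *Phka1* (0.0921), and the robust fit passed 3, without *Pygm* (0.0951). With the replicate number as a block 1 passed, *Slc2a4*. The numbers do not pair the samples (only WT replicate 3 correlated best with its own number), so a call lost under the block is not read as a weaker effect. On the longest transcript, WT levels per length were 4.50 CPM per kb for *Gys1*, 8.32 for *Gyg*, 2.28 for *Gbe1*, 11.9 for *Ugp2* and 20.5 for *Pygb*, with *Ppp1r3c* still first at 30.0. Depth limits *Ppp1r3b*, with at most 34 counts in a library, most.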
